A study of Homo sapiens with 24 samples.

Results

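The HOX genes are the homeobox genes of the HOXA, HOXB, HOXC and HOXD clusters. The 38 members described here were listed by symbol, and each was found as 1 row among the 61551 genes of the count table: 10 in HOXA on chromosome 7, 10 in HOXB on chromosome 17, 9 in HOXC on chromosome 12 and 9 in HOXD on chromosome 2. No measured value entered the list, though it was drawn up with earlier results of these data known.

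RNA was sequenced from H9, an established human embryonic stem cell (hESC) line, and from neuroectodermal cells made from it. The comparisons address what HAR123, a human accelerated region within an intron of SMG6, does to gene expression at these stages, and whether its chimpanzee and mouse orthologs act as the human one does. The 4 genotypes were hHAR123, which is the wild-type line, HAR123-KO, in which CRISPR-Cas9 removed both alleles of the element, and cHAR123 and mHAR123, in which the chimpanzee or mouse ortholog took its place. Each genotype was profiled at 2 stages (ESC, untreated; ECTO, neuroectoderm) in 3 libraries per group, 24 in all, and for neuroectoderm confluent cells were held for 5 days in a knockout serum replacement medium with Noggin at 500 ng/ml and SB431542 at 10 μM, inhibitors of BMP and of activin/nodal signaling. Every genotype is a set of clones of this single line. The study used a pair of independent clones per genotype, and which clone gave which library is not given in the labels. With 3 libraries per group some must share a clone, so the spread between libraries may be partly technical. The SDs, SEs and p-values below rest on that spread and do not measure the spread between clones. The deleted element is not an exon, so the gene counts hold no direct check of the deletion.

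Totals ran from 21022748 to 35198684 counts per library, with a median of 30028694.5 in hESCs and 23849555 in neuroectoderm, and 3 counts, taken as the floor, were worth between 0.0852 and 0.143 CPM, the count scaled to the library total. The stage labels were borne out by their markers: in hHAR123, POU5F1, a pluripotency factor, went from 397 ± 4.67 to 5.37 ± 0.325 CPM per kilobase of exon (RPKM; SD, n = 3) and PAX6, a neuroectoderm factor, from 0.0088 ± 0.0018 to 21.7 ± 0.216 RPKM. One label is in doubt. In neuroectoderm, 117 of 117 base means tabulated by the study under cHAR123 matched, within 0.1%, the columns labelled mHAR123, and 114 of 114 under mHAR123 matched the columns labelled cHAR123, whereas in hESCs 87 of 87 and 143 of 143 matched their own label. Neuroectodermal libraries of both genotypes are therefore given by their column labels, and the comparisons that use them, those between the stages included, rest on labels in doubt.

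HOX genes encode homeodomain transcription factors that give cells their position along the head-to-tail axis. Within a cluster the order of the genes follows the order of their expression domains, with paralogue group 1 at the anterior end of the hindbrain and group 13 at the tail, and they bind DNA together with TALE cofactors of the PBX, MEIS and PKNOX families. The forebrain and midbrain do not use them, and pluripotent cells keep the clusters under Polycomb repression, from which retinoic acid, Wnt and FGF signals and CDX factors release them in posterior tissue.

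Promoter windows (250 bases before to 50 after a RefSeq transcript start, GRCh38.p14) matched 20 of the 38 genes, in 26 distinct windows of 300 bases. HOXA5, HOXB2 to HOXB9, HOXB13, HOXC6, HOXC8 to HOXC13 and HOXD9 had none. The windows below belong to 3 genes whose counts lay in different groups: HOXC4, whose counts lay in neuroectoderm (chr12:54016638-54016937, + strand, a window that HOXC5 shares), HOXA2, whose counts lay in HAR123-KO neuroectoderm (chr7:27102634-27102933, − strand), and HOXB1, whose counts lay in hESCs (chr17:48530962-48531261, − strand). CpG dinucleotides, the units on which promoter methylation and Polycomb recruitment act, are in capitals.
HOXC4: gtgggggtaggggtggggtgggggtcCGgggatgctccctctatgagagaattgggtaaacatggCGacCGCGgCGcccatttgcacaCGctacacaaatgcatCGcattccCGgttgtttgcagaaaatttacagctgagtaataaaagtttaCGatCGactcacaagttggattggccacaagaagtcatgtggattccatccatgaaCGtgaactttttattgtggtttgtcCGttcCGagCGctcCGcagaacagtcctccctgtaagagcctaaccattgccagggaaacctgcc
HOXA2: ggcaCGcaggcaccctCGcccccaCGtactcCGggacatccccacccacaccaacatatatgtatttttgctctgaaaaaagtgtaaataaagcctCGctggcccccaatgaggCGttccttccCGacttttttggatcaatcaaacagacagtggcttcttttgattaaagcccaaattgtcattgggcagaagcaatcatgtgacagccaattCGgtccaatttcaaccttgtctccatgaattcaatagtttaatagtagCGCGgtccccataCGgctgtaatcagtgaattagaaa
HOXB1: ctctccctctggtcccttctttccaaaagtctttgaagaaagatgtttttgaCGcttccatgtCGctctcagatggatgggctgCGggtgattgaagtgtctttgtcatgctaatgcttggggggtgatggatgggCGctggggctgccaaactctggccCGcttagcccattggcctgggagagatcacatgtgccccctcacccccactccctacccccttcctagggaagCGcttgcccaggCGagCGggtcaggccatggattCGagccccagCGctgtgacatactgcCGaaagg

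These windows hold 15, 11 and 11 CpG dinucleotides, fewer than the median of 22.5 over the 26 HOX windows, whose range was 0 to 44. The median over all 34796 RefSeq windows of this length was 14. GC content was 51.7% for HOXC4, 46.3% for HOXA2 and 58% for HOXB1, against a median of 58% over the HOX windows and 58.7% over all windows. Motifs were searched on both strands. TGATTNAT, the letters of a joint HOX and PBX site, occurred in 2 of the 26 windows, those of HOXA2 and HOXD11 (7.69%, against 2.82% of all windows). TATAAA occurred in 5 of 26 (19.2%, against 11.6%), and the retinoic acid receptor repeat DR5 in 0 of 26 (against 0.00575%). The letters describe the windows only.

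In all 24 libraries the HOX genes were near silent. Their counts summed to 156 over all libraries, 61 of 362450680 in hESCs and 95 of 284562858 in neuroectoderm, and the highest count of any HOX gene in any library was 9. None of the 38 genes was detected in any of the 8 groups, where detection meant at least 10 counts in each of the 3 libraries. Of the 912 gene-by-library entries, 842 (92.3%) were 0, 51 were 1 or 2, and 19 were 3 or more, of which 9 belonged to HOXC4. The grid of counts shows the entries.

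**Figure D1:**
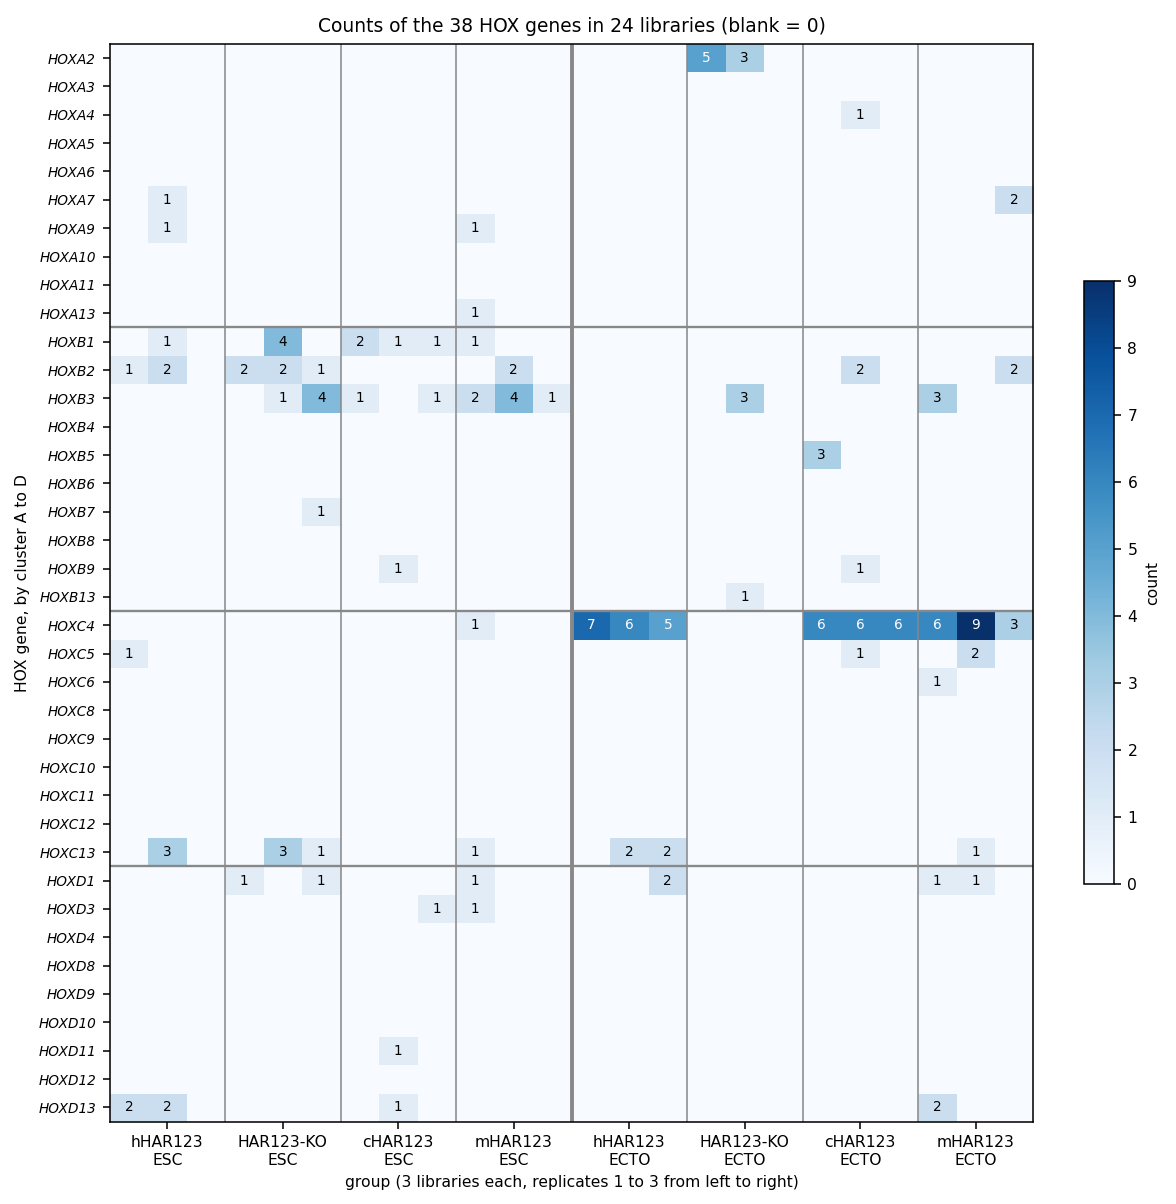
Counts of the 38 HOX genes (rows, by cluster A to D) in the 24 libraries (columns, 3 per group; left 4 groups hESCs, right 4 neuroectoderm), with color and number giving the count and blank cells a count of 0. The row of HOXC4 holds 3 to 9 counts in each of the 9 neuroectodermal libraries that are not HAR123-KO, and 0 in the 3 that are.

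No HOX count at all was seen in 18 of the 38 genes. These were HOXA3, HOXA5, HOXA6, HOXA10 and HOXA11, then HOXB4, HOXB6 and HOXB8, then HOXC8 to HOXC12, and HOXD4, HOXD8 to HOXD10 and HOXD12. A count of 0 over all libraries allows a level of up to 0.00464 CPM (3 counts; counting error only). Among the 19977 protein-coding genes of the table, 7.05% had 0 in every library and 19.9% stayed under 10 in every library, as all 38 HOX genes did. Shared exons are one limit on such counts: 14 of the 38 genes share no exon with another gene, and 8 of these 14 were among the 18 without a count. The highest count among the 14 was 5.

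By cluster, HOXA held 15 counts over all libraries, HOXB 51, HOXC 73 and HOXD 17. HOXB counts lay mainly in hESCs (36, against 15 in neuroectoderm) and HOXC counts in neuroectoderm (63, against 10). By paralogue group, the anterior groups 1 to 3, which serve the hindbrain, held 39 counts in hESCs and 22 in neuroectoderm. Groups 4 to 8 held 4 and 64, of which HOXC4 made up 1 and 54, and groups 9 to 13, which serve the lower trunk and tail, held 18 and 9. Without HOXC4 the clusters gave 60 counts in hESCs and 41 in neuroectoderm, which is 0.166 and 0.144 CPM of the pooled libraries. Of the 20 genes with a count, 9 had counts at both stages, 6 in hESCs only and 5 in neuroectoderm only. Differences between clusters and between paralogue groups were not tested.

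The summed level of the 38 genes was 0.142 ± 0.151 CPM in hHAR123 hESCs, 0.237 ± 0.106 in HAR123-KO, 0.119 ± 0.0255 in cHAR123 and 0.169 ± 0.119 in mHAR123 (SD, n = 3 each). These ranges overlap. In neuroectoderm it was 0.349 ± 0.0304 CPM in hHAR123, 0.365 ± 0.098 in the libraries labelled cHAR123, 0.447 ± 0.126 in those labelled mHAR123 and 0.169 ± 0.151 in HAR123-KO. In 1 hHAR123 hESC library (replicate 3) and 1 HAR123-KO neuroectodermal library (replicate 3) no HOX gene had a count. HOXC4 made up 56.8% of all HOX counts in neuroectoderm.

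HOXC4 (ENSG00000198353, chr12:54016931-54056030, + strand) reaches the anterior end of the HOXC cluster (chr12:53938831-54056030) but, as annotated here, starts well inside it. Its protein marks the lower hindbrain and neck. Where in this long row the counts of HOXC4 fell is not given by gene counts. In hHAR123 neuroectoderm its counts were 7, 6 and 5. In the libraries labelled cHAR123 they were 6, 6 and 6, and in those labelled mHAR123 they were 6, 9 and 3. In HAR123-KO neuroectoderm they were 0, 0 and 0. HAR123-KO therefore did not overlap with any other neuroectodermal genotype. In hESCs, 11 of 12 libraries had 0, and 1 mHAR123 library (replicate 1) had 1 count.

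**Figure D2:**
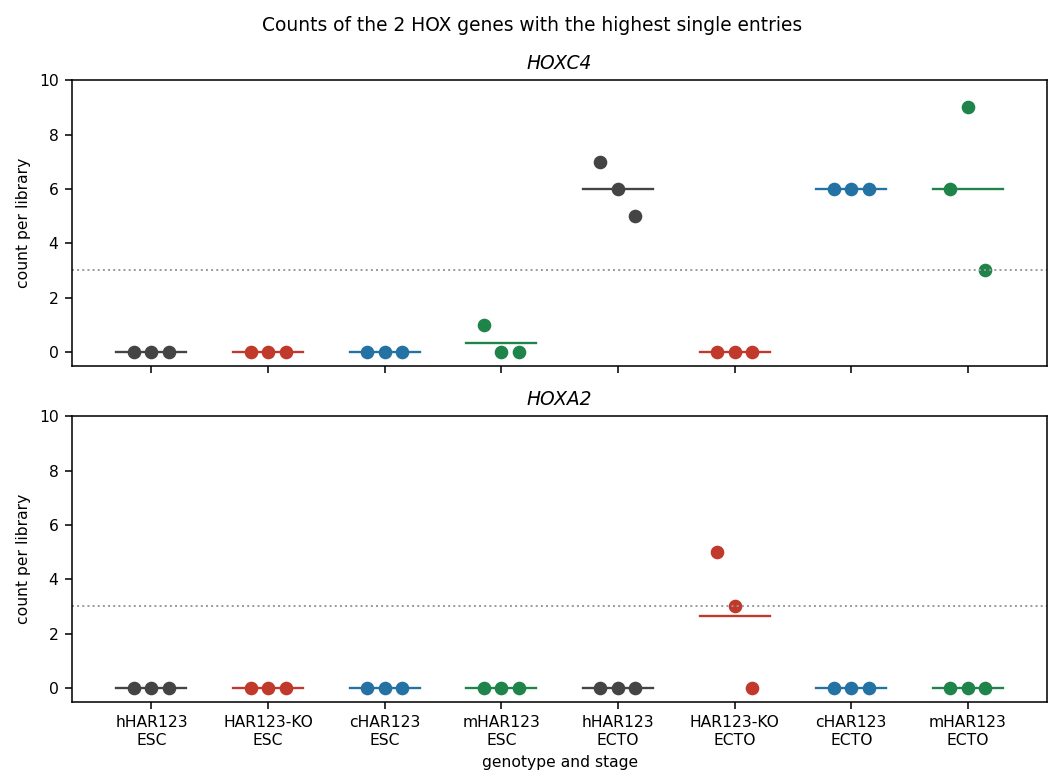
Counts per library of HOXC4 (top) and HOXA2 (bottom) in the 8 groups; each point is a library, short lines are group means of 3 libraries and the dotted line is the floor of 3 counts. HOXC4 lies between 3 and 9 in hHAR123, cHAR123 and mHAR123 neuroectoderm and at 0 in HAR123-KO, and HOXA2 is above 0 in 2 libraries, both HAR123-KO neuroectoderm.

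The level of HOXC4 was 0.265 ± 0.0615 CPM in hHAR123 neuroectoderm, 0.254 ± 0.0145 in cHAR123 and 0.244 ± 0.122 in mHAR123 (SD, n = 3 each), or 0.0957, 0.0919 and 0.0883 RPKM. Against a floor of 3 counts over the 3 HAR123-KO libraries together, these levels were 6.27-fold, 6.06-fold and 5.87-fold that floor. The counting error of the levels themselves is left out of these ratios. HOXC4 did not pass edgeR's filter on low counts, and no HOX gene did in any of the 14 comparisons. Without that filter, edgeR's quasi-likelihood test called HOXC4 lower in HAR123-KO than in hHAR123 neuroectoderm (adjusted p = 0.000413; 0.000405 to 0.0064 over 9 alternatives, DESeq2 and the loss of each library among them), where calls need an adjusted p under 0.01 and a log2 fold change beyond 1. It was 1 of 6 HOX genes with a count in that comparison, and 2.79% of the 39100 genes tested were called lower. DESeq2 gave an adjusted p of 0.00467, with 2.01% called lower.

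Against HAR123-KO, HOXC4 was also called higher in the libraries labelled cHAR123 (edgeR without filter, adjusted p = 0.000422; 2.21% of genes called higher) and in those labelled mHAR123 (adjusted p = 0.000512; 2.16%). The second of these calls rests on mHAR123 replicate 2, the library with 9 counts, since the adjusted p without it was 0.0245. DESeq2 gave no adjusted p in either, and unadjusted p-values of 0.00065 and 0.00144 (1.79% and 1.53% of genes called higher). All 3 comparisons share the same HAR123-KO libraries. An exact permutation test of the CPM values gave p = 0.1 (two-sided) in each, the smallest that 3 libraries against 3 allow. Among hHAR123, cHAR123 and mHAR123 the values overlapped, with exact permutation p-values of 0.8 to 0.9, and each of the last pair held 18 counts whichever label applies.

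Across the table, 22768 genes had at least 3 counts in each of the 9 neuroectodermal libraries that were not HAR123-KO, and 3 of these had 0 in all 3 HAR123-KO libraries: HOXC4, OSTM1-AS1 and ENSG00000279398, the last pair named after their values were seen. Among the 361 genes with 3 to 9 counts in each of the 9 libraries, HOXC4 was the 1 gene (0.277%) at 0 in HAR123-KO. Of these, 12 had at most 1 count in each hESC library, as HOXC4 did, and 1 of these 12 (8.33%), HOXC4 itself, was at 0 in HAR123-KO. The limits of these sets follow HOXC4's own counts, so the shares describe its pattern and do not test it. HOXC4 shares 17.5% of its exon length with HOXC6 and ENSG00000273046 on the same strand. HOXC6 had 1 count in all 24 libraries and HOXC5, whose promoter window is the same, had 4. Whether a read pair was counted once or as 2 reads is not given, and entries of 2 (59402 in the table) were nearly as common as entries of 1 (61105), so 6 counts may be fewer molecules.

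Between the stages, HOXC4 was higher in neuroectoderm than in hESCs of the same genotype in 3 of the 4 genotypes. Against the floor of 3 counts over the hESC libraries, with its own counting error left out, it was 8.75-fold that floor in hHAR123 (edgeR without filter, adjusted p = 9.13e-05; 15.5% of genes called higher) and 7.13-fold in cHAR123 (adjusted p = 0.000157; 13.8%). In mHAR123 the ratio of 18 to 1 counts was 22.7-fold in CPM, with an exact 95% interval of 3.58 to 944 for counting error only (adjusted p = 0.000903; 13.3%). DESeq2 called HOXC4 in hHAR123 (adjusted p = 0.00151; 12.4% called higher) and cHAR123 (0.00296; 10.8%). The call in mHAR123 was lost with DESeq2 (adjusted p = 0.0142; 10.3%) and without neuroectodermal replicate 2 (edgeR, adjusted p = 0.0325). In HAR123-KO all 6 libraries had 0. Whether the effect of HAR123-KO on HOXC4 differs between the stages could not be fitted by edgeR, since 3 of the 4 groups had no count.

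Markers of another cell type also differed between the neuroectodermal genotypes. The summed level of 7 neural crest and dorsal border markers was 1197 to 1208 CPM in HAR123-KO neuroectoderm and 105 to 112 in hHAR123. The 6 that were tested (FOXD3, SOX10, PAX7, SNAI2, TFAP2A and PAX3) rose in HAR123-KO (edgeR with filter; 9.45% of all genes called). The summed level was 237 to 248 CPM in the libraries labelled cHAR123 and 261 to 264 in those labelled mHAR123, whose HOXC4 counts overlapped with those of hHAR123. Of the 6 tested markers, 5 were also called higher than in hHAR123 in the libraries labelled cHAR123 (0.978% of all genes called) and 5 in those labelled mHAR123 (1.03%). The 5 neuroectoderm markers summed to 510 to 518 CPM in HAR123-KO and 1035 to 1061 in hHAR123, and of 6 mesoderm and endoderm markers none exceeded 5 counts in any neuroectodermal library. In bulk RNA, fewer cells that express a gene and less RNA per cell cannot be told apart. The part of the cell mixture in the HOXC4 difference was not tested.

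HOXA2 (ENSG00000105996, chr7:27100354-27102686, − strand), which patterns the second pharyngeal arch and the anterior hindbrain, had 5, 3 and 0 counts in HAR123-KO neuroectoderm and 0 in each of the other 21 libraries. It shares no exon with another gene. The counts were not enough for a call: against hHAR123 neuroectoderm the adjusted p was 0.0552 and against HAR123-KO hESCs 0.0293 (edgeR without filter), and the exact permutation p was 0.4. In HAR123-KO replicate 3 it was 0, so HAR123-KO overlapped with every other group.

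HOXB1, HOXB2 and HOXB3, which pattern the hindbrain, gave most of the HOX counts of hESCs. HOXB1 had 10 counts in 6 hESC libraries, all 3 of cHAR123 (2, 1 and 1) among them and up to 4 in 1 HAR123-KO library, and 0 in the 12 neuroectodermal libraries. HOXB2 had 10 counts in 6 hESC libraries and 4 in 2 neuroectodermal ones, and HOXB3 had 14 in 7 and 6 in 2. HOXB3 was at 2, 4 and 1 counts in mHAR123 hESCs and at 0 in all 3 hHAR123 libraries (edgeR without filter, adjusted p = 0.127). The other genes with at least 5 counts in all were HOXC13 with 13, HOXD1 with 7 and HOXD13 with 7, none above 3 in a library. The remaining 12 of the 20 genes with a count held at most 4 counts each, 7 of them in a single library.

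No other HOX gene was called in any comparison. Without the filter on low counts, edgeR called 0 HOX genes between HAR123-KO and hHAR123 hESCs (0.76% of all genes called), 0 between cHAR123 and hHAR123 hESCs (0.556%) and 0 between mHAR123 and hHAR123 hESCs (0.75%). At an unadjusted p under 0.05 the numbers were 0, 0 and 1, the last being HOXB3. It also called 0 in neuroectoderm between cHAR123 and hHAR123 (0.654%), mHAR123 and hHAR123 (0.699%) and mHAR123 and cHAR123 (0.187%), with 0 at an unadjusted p under 0.05 in each. Between the stages of HAR123-KO it called 0 (26.3%), with 1 at an unadjusted p under 0.05, HOXA2. For the interaction of HAR123-KO with stage it called 0 (4.4%, or 7.87% with the filter), and 0 at an unadjusted p under 0.05. DESeq2 called 0 in each of these 8 comparisons, where it gave no HOX gene an adjusted p, and had 0 at an unadjusted p under 0.05. The share of all genes it called was, in the same order, 0.395%, 0.198%, 0.287%, 0.332%, 0.338%, 0.0363%, 22.1% and 3.62%. These tests had 8 to 13 HOX genes with a count, most of which edgeR's interaction fit could not have called.

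The genes on either side of the clusters were read at ordinary levels, with median counts over the 24 libraries of 64.5 for SKAP2 and 526 for HIBADH beside HOXA, 178.5 for TTLL6 beside HOXB, 733 for CALCOCO1 and 554 for SMUG1 beside HOXC, and 731.5 for LNPK and 490.5 for MTX2 beside HOXD. The exception was SKAP1 beside HOXB, with a median of 4. The long non-coding and antisense RNAs inside the clusters and the EVX and PRAC genes at their ends were as low as the HOX genes. Of these 22, 13 had 0 in every library, HOTAIR and HOTTIP among them, and the highest count was 6, of EVX1 in hHAR123 neuroectoderm. HOTAIRM1, which is transcribed at the anterior end of HOXA, had 1 count in all 24 libraries.

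All 9 TALE cofactors, the DNA-binding partners of HOX proteins, had counts in hHAR123 neuroectoderm, where 35 of the 38 HOX genes had none. Between the stages of hHAR123 6 of the 9 rose and 1 fell (edgeR with filter; 45.9% of 22280 genes called). MEIS1 rose from 0.0046 ± 0.0018 RPKM (counts of 2, 2 and 1) to 2.21 ± 0.0984 (516, 555 and 585), a log2 fold change of 8.51 ± 0.19 (SE; adjusted p = 1.58e-32). The HOX inducer CDX4 went from 24, 31 and 29 counts to 0, 0 and 0, and GBX2, a marker of the anterior hindbrain, fell by 3.75 on the log2 scale (adjusted p = 6.86e-13).

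**Figure D3:**
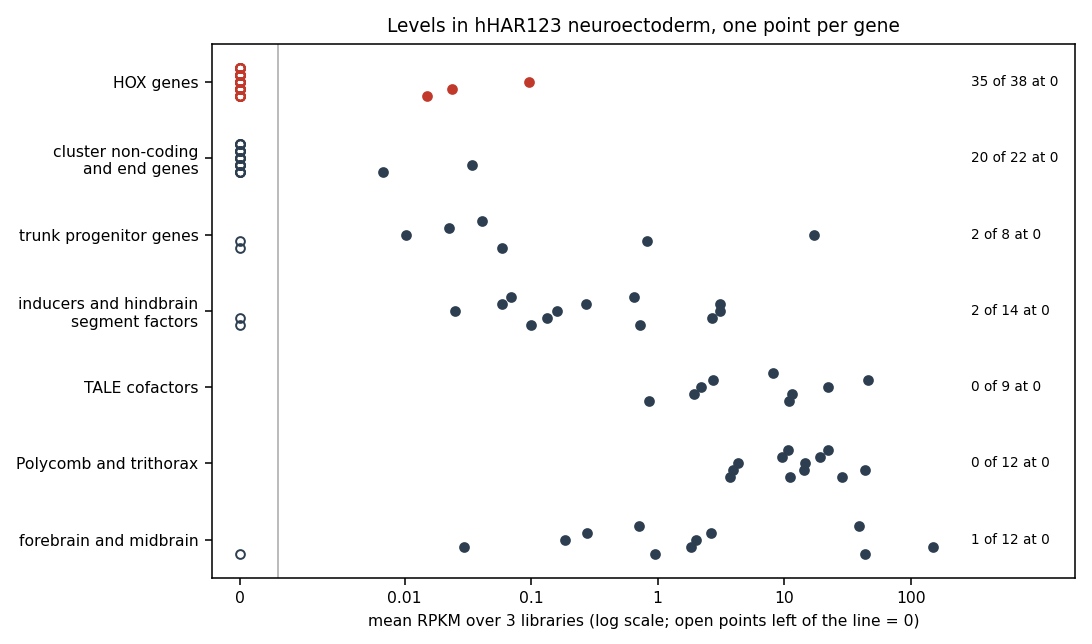
Mean level over the 3 hHAR123 neuroectodermal libraries in RPKM (log scale; open points left of the line are genes at 0), 1 point per gene, for the HOX genes and 6 lists of related genes. Of 38 HOX genes 35 are at 0 and the highest, HOXC4, is at 0.0957, while all 9 TALE cofactors lie at 0.857 or above.

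The forebrain and midbrain list holds 12 genes of the HOX-free brain. In hHAR123, 9 of its 10 tested genes rose from hESCs to neuroectoderm and 1, HESX1, fell. OTX2, which specifies forebrain and midbrain, went from 10.3 ± 0.583 to 150 ± 2.59 RPKM. Between the stages 6 of 8 tested rose in HAR123-KO (41.1% of all genes called), 8 of 9 in cHAR123 (42.7%) and 9 of 10 in mHAR123 (41.9%), and 1 fell in each. Of 8 trunk and neuromesodermal genes 4 were tested in hHAR123, of which GDF11 rose and CDX4 and NKX1-2 fell. TBXT, a marker of axial progenitors, had 1, 0 and 3 counts in hHAR123 neuroectoderm and at most 2 in a library of the other genotypes, and CDX2 had 0 in all 12 neuroectodermal libraries.

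HAR123-KO neuroectoderm differed from hHAR123 in these surrounding genes (edgeR with filter; 9.45% of 21362 genes called). Of the 10 tested forebrain and midbrain genes 4 fell and 2 rose, and the list median was -0.88 on the log2 scale, against 0.001 over all genes tested. RAX, an eye field and anterior forebrain factor, had 191, 252 and 244 counts in hHAR123 and 18, 5 and 17 in HAR123-KO (log2 −4.10 ± 0.19, adjusted p = 5.28e-25). FEZF2, a forebrain factor, had 1857, 2157 and 2014 and then 168, 173 and 161 counts (log2 −3.60 ± 0.06, adjusted p = 7.94e-44). EN1, which marks the midbrain and hindbrain border, went the other way, from 17, 20 and 17 to 201, 234 and 224 counts (log2 3.59 ± 0.16, adjusted p = 2.44e-25). These 3 genes were picked as the largest called changes of the list. That choice favors counts without overlap, as they had between HAR123-KO and hHAR123. The share of all genes without overlap was not counted.

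Of the 9 TALE cofactors 2 rose in HAR123-KO neuroectoderm and none fell, with a list median of 0.06. MEIS2 had 175, 229 and 235 counts in hHAR123 and 933, 1030 and 955 in HAR123-KO (log2 2.18 ± 0.07, adjusted p = 1.89e-31). PKNOX2 had 1116, 1281 and 1254 and then 3182, 3063 and 3274 (log2 1.37 ± 0.04, adjusted p = 2.12e-33). Of the HOX genes, HOXA2 with its 8 counts and HOXB13 with 1 count had counts in HAR123-KO neuroectoderm and in no other group.

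Of the 9 tested inducers and hindbrain segment factors, 2 rose and 2 fell. RARG, a retinoic acid receptor, had 334, 384 and 371 counts in hHAR123 and 1058, 1087 and 1084 in HAR123-KO (log2 1.56 ± 0.06, adjusted p = 1.78e-28). CYP26C1, which degrades retinoic acid, had 13, 14 and 13 and then 60, 35 and 42 (log2 1.76 ± 0.28, adjusted p = 3.34e-07). EGR2, which defines hindbrain segments and activates HOXA2 and HOXB2, had 66, 71 and 47 and then 17, 18 and 13 (log2 −1.94 ± 0.24, adjusted p = 1.54e-09). ALDH1A2, which makes retinoic acid, also fell (log2 −1.43 ± 0.31, adjusted p = 9.97e-05). CDX1, chosen after its values were seen, did not pass the filter. It had 4, 2 and 1 counts in hHAR123 and 9, 14 and 23 in HAR123-KO, and without the filter its adjusted p was 6.31e-06 (edgeR) and 0.00449 (DESeq2).

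**Figure D4:**
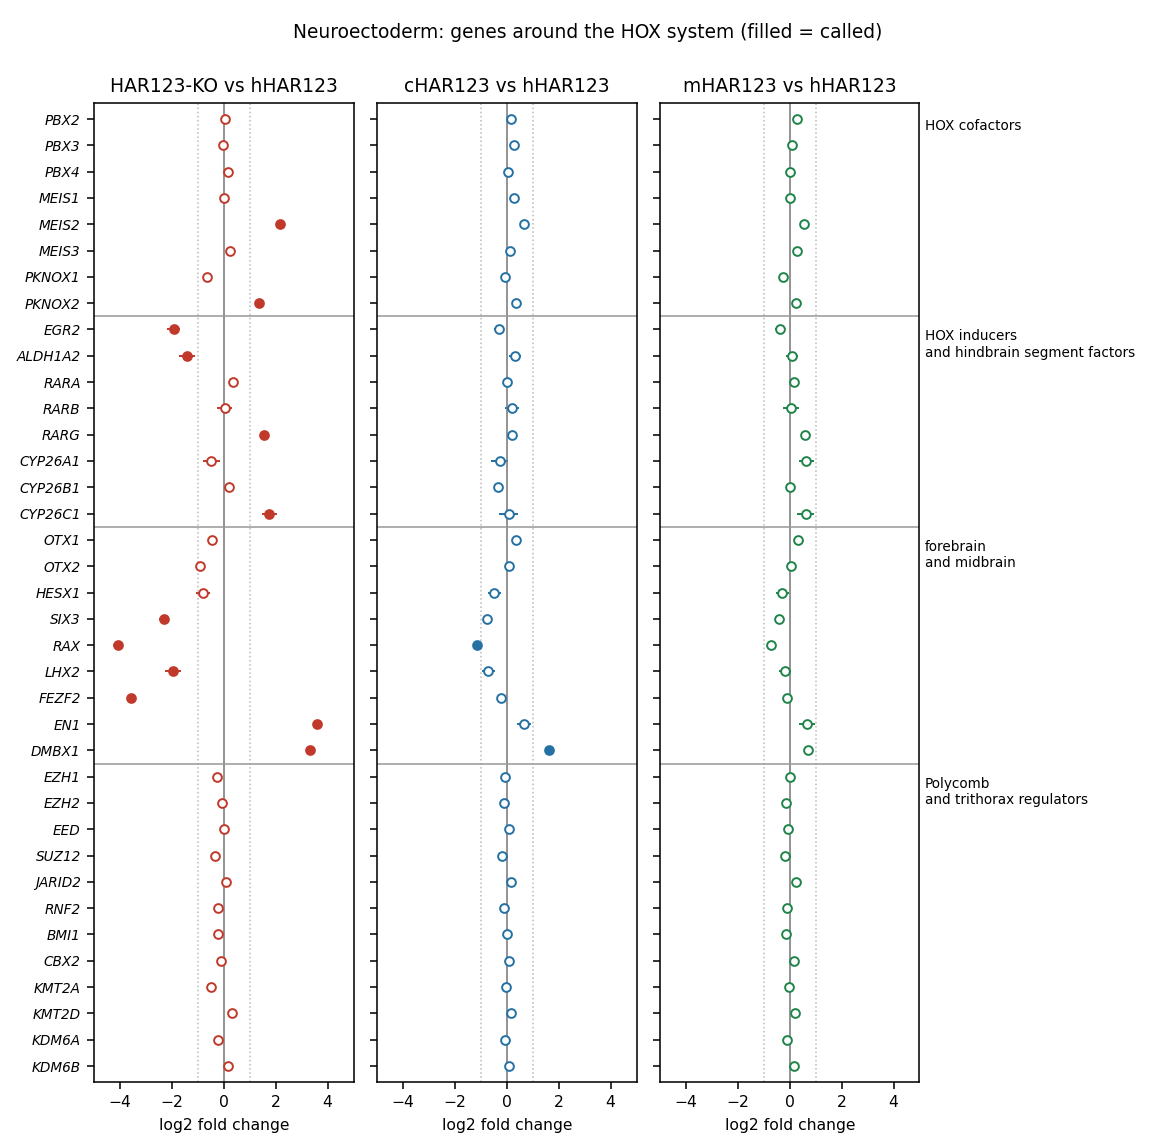
Log2 fold change against hHAR123 in neuroectoderm (horizontal axis; bars are SE; dotted lines at a log2 fold change of 1 in either direction) of tested genes of 4 lists, for HAR123-KO, cHAR123 and mHAR123; filled points were called. In HAR123-KO 12 genes are called, from RAX at −4.10 to EN1 at 3.59, and no Polycomb or trithorax gene is.

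Polycomb and trithorax genes, which keep HOX clusters off or on, did not move past the fold threshold in HAR123-KO neuroectoderm. Of 12 tested, 0 were called (edgeR; 9.45% of all genes called). Of these 12, 9 had an adjusted p under 0.01, and the log2 fold changes ran from −0.52 for KMT2A to 0.30 for KMT2D. EZH2, the methyltransferase of Polycomb, stood at 11.2 ± 0.347 RPKM in hHAR123 and 10.3 ± 0.293 in HAR123-KO neuroectoderm. Between the stages of hHAR123, 3 of the 12 rose and 1 fell (45.9% of all genes called). KDM6B, which removes the Polycomb mark, rose from 1.30 ± 0.109 to 28.6 ± 0.704 RPKM (log2 4.17 ± 0.05, adjusted p = 1.01e-41), and JARID2, a Polycomb cofactor, fell by 2.08 on the log2 scale (adjusted p = 2.66e-38). HOX counts other than those of HOXC4 stayed at the levels given above.

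The ortholog replacements changed few of these genes. Of the forebrain and midbrain genes in the libraries labelled cHAR123, compared with hHAR123 neuroectoderm (0.978% of all genes called), RAX was lower (95 to 114 counts, against 191 to 252, log2 −1.16 ± 0.11, adjusted p = 3.25e-11) and DMBX1, a midbrain factor, was higher (751, 752 and 714 counts against 212, 253 and 230, log2 1.64 ± 0.07, adjusted p = 4.72e-22). In the libraries labelled mHAR123 no gene of the 6 lists was called against hHAR123 neuroectoderm (1.03% of all genes called). In hESCs 1 list gene was called in the 3 comparisons with hHAR123: CYP26A1, named after its values were seen, which degrades retinoic acid and was lower in HAR123-KO (61, 71 and 56 counts against 161, 146 and 170, log2 −1.13 ± 0.14, edgeR adjusted p = 2.62e-08; 1.18% of all genes called, against 0.85% in cHAR123 and 1.23% in mHAR123). Its log2 fold change was −0.96 without HAR123-KO replicate 3, below the fold threshold.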

How the data were processed

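RNA-seq libraries (rRNA-depleted, directional, paired-end) were made from H9 hESCs and neuroectoderm of 4 genotypes. The deposited table holds read counts per gene, which the authors made with STAR 2.5.2b and featureCounts on GRCh38, per the submitters' processing notes. The strand and pair settings of the counting are not given in the sources used here. Of its lines, 3 that form 1 broken row were left out, and 61551 genes remained.

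The 38 HOX genes and the lists around them were chosen with earlier results of these data known. Each pair of groups (n = 3 each) was fitted alone with edgeR 4.0.16 (R 4.3.3; TMM, filterByExpr, quasi-likelihood F test, Benjamini-Hochberg over all genes tested), and a gene was called at an adjusted p under 0.01 and a log2 fold change beyond 1. DESeq2 1.42.0, other scaling, no filter, the replicate number as a block and leaving out each library were alternatives. CPM were counts over the library total, and RPKM the deposited exon length. Exact permutation tests used SciPy 1.17.1. The script was tested on simulated data.

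Every HOX gene is accounted for, and those detected or called are given with values. Of the other lists, the numbers called are given, with the 3 largest called changes of HAR123-KO against hHAR123 neuroectoderm and genes called in a replacement genotype. Some genes of these lists are not reported here.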

Additional observations from a re-analysis of the deposited data

Results flagged for a closer look

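The interaction test of edgeR gave the log2 effect in neuroectoderm minus that in hESCs, with SE and adjusted p over all genes tested. It called 6 of the 8 genes named as the largest called changes per list, up to 3, of HAR123-KO neuroectoderm. FEZF2 and EN1 were not called. ALDH1A2, given above outside that rule, was also called, as lower. Of all 23113 genes tested, 7.87% were called. The 8 genes were chosen for large changes in the same neuroectodermal libraries, which favors such a call, so the 6 calls are no separate support. The difference between the stages was 2.33 ± 0.62 for MEIS2 (adjusted p = 0.00172) and 1.80 ± 0.13 for PKNOX2 (adjusted p = 3.79e-17), both HOX cofactors. Among the inducers and segment factors it was 2.55 ± 0.41 for CYP26C1 (adjusted p = 9.02e-07), 1.47 ± 0.07 for RARG (adjusted p = 3.21e-24) and −1.85 ± 0.33 for EGR2 (adjusted p = 7.1e-06). For the forebrain factor RAX it was −3.79 ± 0.66 (adjusted p = 4.18e-06). No HOX gene could be tested in this way with the filter on low counts.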

How the results depend on the processing

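With edgeR's filter no HOX gene was tested, so the number called was 0 in all 14 comparisons, and it became 1 (HOXC4) in 6 of them without the filter, and likewise without it under DESeq2's size factors or at an adjusted p under 0.05: HAR123-KO against hHAR123, cHAR123 and mHAR123 neuroectoderm, and the stages of hHAR123, cHAR123 and mHAR123. At the looser threshold it also became 1 (HOXA2) between the stages of HAR123-KO. DESeq2 called 1 in 3 of these comparisons. With the replicate number as a block and no filter it was 1 in 5, all but the stages of mHAR123. The replicate numbers do not pair the samples (39 correlations of deviations, from −0.0232 to 0.0371), the block moved the number of genes called by 0.855 to 1.046 times, and of 17 named results it ended 1 call, that of HOXC4 between the stages of mHAR123. Leaving out each library kept every number of HOX genes called with the filter at 0. At 5 counts in each library of a group, HOXC4 was detected (1 gene). The summed HOX level of hHAR123 neuroectoderm was 0.317 CPM with TMM-scaled library sizes. Of 197 alternatives of the 17 named results, 190 kept the call, 5 lost it, 2 gave no adjusted p and 0 reversed. DESeq2 called fewer genes than edgeR with its filter by over 1.5 times in cHAR123 and mHAR123 against hHAR123 (hESCs, 78 against 178 and 114 against 260; neuroectoderm, 129 against 208 and 131 against 219), in HAR123-KO hESCs (155 against 246) and between mHAR123 and cHAR123 neuroectoderm (14 against 55). The causes were not tested. HOX levels under the floor of 3 counts per library, about 0.0852 to 0.143 CPM, could not be read in a single library. Detection as defined above needed at least 10 counts in each library of a group, which is a higher level. HOXC4, at 0.244 to 0.265 CPM in the neuroectoderm of hHAR123, cHAR123 and mHAR123, did not reach it.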
